A study of Mus musculus with 9 samples.

Results

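Collagens and other genes of mesenchymal extracellular matrix were followed in macrophages grown from mouse bone marrow and fed spinal cord homogenate. The set was chosen by gene symbol and holds 36 of the 53342 genes in the count table. It comprises 5 fibrillar collagen chains, 3 type VI collagen chains, 4 basement membrane genes, 3 genes for collagen folding and crosslinking, 3 small leucine-rich proteoglycans, 11 matrix glycoproteins, 2 growth factor receptors and 5 contractile or caveolar genes. The macrophages were treated with Torin-2, which competes with ATP at the mTOR kinase, with rapamycin, an inhibitor of the mTORC1 complex, or with vehicle, with 3 libraries in each group. Cells of all 3 groups were wild-type C57BL/6J and came from mice of both sexes aged 8 to 12 weeks. They received compound or vehicle for 2 h, and for the next 24 h homogenate was present at 1% w/v, or 10 mg of cord in each mL. All 9 libraries therefore carry the homogenate, and macrophages without it were not analysed here. Per the labels' protocols, bones of different animals were kept apart, while the homogenate came from pooled cords of mice aged 8 to 20 weeks, stripped of meninges to limit fibroblasts. Neither Torin-2 nor rapamycin has a dose in the sources used here.

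Fibrillar collagens of types I, III and V assemble into the fibrils of connective tissue, and type VI collagen forms beaded filaments around cells. Type IV collagen, laminin and nidogen build basement membranes. Before secretion, collagen chains are folded with the help of the chaperone HSP47, encoded by Serpinh1, and after secretion they are crosslinked by lysyl oxidases. Most of these genes are best known from fibroblasts, osteoblasts, pericytes and smooth muscle cells, whereas macrophages are well known to make fibronectin and thrombospondin 1. In the injured spinal cord, perivascular and meningeal fibroblasts lay down much of the fibrotic matrix, in close contact with macrophages.

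The start regions of 4 members are shown because they stand for fibrillar, basement membrane and contractile members and hold the motifs searched for. RefSeq sequences of GRCm38.p6, 250 bases before and 50 bases from the gene's start, were matched for 24 of the 36 members. The start region of Col1a2, encoding the second chain of type I collagen, lies at chr6:4505368-4505667 on the plus strand. That of Col3a1, the type III collagen gene, lies at chr1:45311288-45311587 on the plus strand. For Col4a1, of basement membrane type IV collagen, the start region lies at chr8:11312777-11313076 on the minus strand. This window shares 78 bases with that of Col4a2, which is read in the opposite direction. The start region of Myl9, a myosin light chain gene, lies at chr2:156775214-156775513 on the plus strand. Capitals mark CCAAT or its reverse complement ATTGG in Col1a2 and Col4a1, TATAAA in Col3a1 and a CArG box in Myl9, and each is written 5′ to 3′ on the gene's strand.
Col1a2: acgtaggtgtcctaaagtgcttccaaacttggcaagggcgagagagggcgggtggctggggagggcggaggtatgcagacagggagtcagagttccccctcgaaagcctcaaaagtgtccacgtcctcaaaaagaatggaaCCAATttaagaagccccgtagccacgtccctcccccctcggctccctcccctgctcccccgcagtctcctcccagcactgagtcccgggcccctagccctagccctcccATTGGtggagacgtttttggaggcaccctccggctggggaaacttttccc
Col3a1: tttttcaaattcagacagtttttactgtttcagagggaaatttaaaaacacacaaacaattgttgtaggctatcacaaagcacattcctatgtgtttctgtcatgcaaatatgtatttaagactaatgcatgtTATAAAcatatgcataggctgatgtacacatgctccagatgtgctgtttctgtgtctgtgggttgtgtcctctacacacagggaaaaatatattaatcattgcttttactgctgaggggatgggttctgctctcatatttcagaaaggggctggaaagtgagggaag
Col4a1: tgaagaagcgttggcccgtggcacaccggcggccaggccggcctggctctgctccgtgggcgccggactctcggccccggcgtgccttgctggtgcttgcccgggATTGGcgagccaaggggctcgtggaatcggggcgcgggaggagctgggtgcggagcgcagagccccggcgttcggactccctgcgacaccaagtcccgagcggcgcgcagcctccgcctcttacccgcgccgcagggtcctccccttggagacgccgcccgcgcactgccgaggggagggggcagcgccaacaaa
Myl9: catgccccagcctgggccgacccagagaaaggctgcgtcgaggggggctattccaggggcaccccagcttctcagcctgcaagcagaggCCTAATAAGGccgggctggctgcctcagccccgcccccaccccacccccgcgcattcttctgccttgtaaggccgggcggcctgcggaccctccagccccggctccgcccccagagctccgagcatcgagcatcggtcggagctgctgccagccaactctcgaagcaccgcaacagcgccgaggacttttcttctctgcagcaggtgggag
The 24 members have 28 windows in the table, since 4 of them have more than 1 start, and a gene was counted when any of its windows held the motif. CCAAT on either strand was found for 8 members (33.3%), against 41.1% of 27025 mouse genes counted in the same way. TATAAA on the gene's own strand was found for 3 members (12.5%), Cald1, Col3a1 and Postn, against 9.77% of genes. A CArG box, the element bound by serum response factor, was searched only in its strict form, CCWWWWWWGG with W for A or T. That form was found for 1 member (4.17%), Myl9, against 1.81% of genes. Looser forms, with another base inside the run of A or T, were not searched, so members without the strict form may still hold 1. The shares of members with these motifs are a description of the windows, and no factor's binding was measured here.

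Levels of the members differed widely. Expressed as CPM, counts scaled by each library's total and TMM factor, per kb of exon and averaged over the 9 libraries, Thbs1, encoding the matricellular protein thrombospondin 1, was the highest at 39.8 CPM per kb. Smooth muscle actin Acta2 followed at 12.0 CPM per kb, transgelin Tagln at 8.81, fibronectin Fn1 at 6.84, osteonectin Sparc at 6.63 and caveolin-1 Cav1 at 6.50. The collagen chains were far lower per kb, with Col1a2 at 1.27, Col1a1 at 1.07 and the other 8 chains between 0.1 and 0.461 CPM per kb. Of the 36 members, 32 had enough counts for a test. The proteoglycan genes Dcn and Lum, the receptor gene Pdgfra and Ccdc80, encoding a secreted matrix-binding protein, did not.

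Library totals ran from 16116666 to 24044329 counts, and 3 counts, the limit that a count of 0 allows for counting error alone, correspond to 0.123 to 0.193 CPM depending on the library. The macrophage identity of the cultures was checked with 16 markers, whose summed level was 28590 to 31187 CPM in the Torin-2 libraries, 41854 to 44618 CPM in the rapamycin libraries and 31745 to 40230 CPM in the vehicle libraries. Most of that sum came from Ctsb and lysozyme Lyz2, at means of 16683 and 12131 CPM over the 9 libraries. Lyz2 stood at 10695 to 12666 CPM with Torin-2, 14254 to 15835 CPM with rapamycin and 8129 to 11755 CPM with vehicle. Single markers went both ways. Against vehicle, 5 of the 16 were higher and 7 lower with Torin-2, and 9 higher and 4 lower with rapamycin (edgeR, adjusted p under 0.05). Over all genes these shares were 32.5% and 32.9% with Torin-2, and 24.6% and 26.2% with rapamycin. These are bulk samples, so a change in the number of cells that express a member and a change in RNA per cell cannot be told apart. Counting without knowledge of strand also leaves reads of overlapping genes unresolved. Exonic bases are shared with another annotated gene by 13 members, and in 4 of them the partner had more than 1% of the member's own count. These are Tagln, which shares 1241 exonic bases with the antisense gene Gm48529 (143 counts in all 9 libraries, against 3099 for Tagln) and 108 with Pcsk7, Igfbp7, which shares 85 bases with the more abundant Polr2b, and the pair Col4a1 and Col4a2, which share 22.

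The libraries numbered 3 stood apart from those numbered 1 and 2 in all 3 groups, and most members differed by this number. For 28 of the 32 tested members the lowest library of each group was its replicate 3, against 8.22% of all genes tested. Neither replicate 1 nor replicate 2 was the lowest in all 3 groups for any member, against 4.80% and 9.58% of all genes. In a fit with treatment group and replicate number, 29 of 32 members differed by replicate number (edgeR quasi-likelihood F test, Benjamini-Hochberg adjusted p under 0.05), against 4.42% of all 12511 genes. Replicate 3 was lower than replicate 1 in 29 members (1.96% of all genes were called lower) and lower than replicate 2 in 27 (3.23% of all genes were called lower and 3.32% higher). Between replicates 2 and 1, edgeR called 0 members (0.0160% of all genes were called higher and 0.0240% lower), and 9 were lower at an unadjusted p under 0.05. The median log2 fold change over the 32 members was -2 for replicate 3 against 1, where all genes had a median of 0.015, and -1.74 for replicate 3 against 2, where all genes had 0.009.

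Tagln, an actin-binding protein of smooth muscle, ranked 4th of the 12511 genes by the F statistic. It stood at 12.6, 13.6 and 3.45 CPM in Torin-2 libraries 1, 2 and 3, at 37.4, 36.1 and 7.37 CPM in the rapamycin libraries, and at 22.6, 19.4 and 5.10 CPM in the vehicle libraries. In each group the first 2 libraries were close and the other was several times lower, giving -2.15 ± 0.11 for replicate 3 against 1 (log2 fold change ± SE, adjusted p = 2.31e-07 by edgeR). Serpinh1 ranked 8th, nidogen Nid1 9th, Col1a2 12th, Sparc 13th and the lysyl oxidase gene Lox 16th. The largest estimates among the called members were those of Col6a1, with -2.71 ± 0.29, and Thbs2, encoding thrombospondin 2, with -2.70 ± 0.39. Thbs1 moved least, with -0.40 ± 0.06 (adjusted p = 0.00324 by edgeR), and its call was lost without Torin-2 replicate 1 or without rapamycin replicate 1. Col6a3, Mgp and Cav1 did not pass the F test, with adjusted p of 0.106, 0.217 and 0.305 by edgeR. The labels do not state what the replicate numbers stand for, so preparation, animal and day cannot be told apart.

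**Figure D1:**
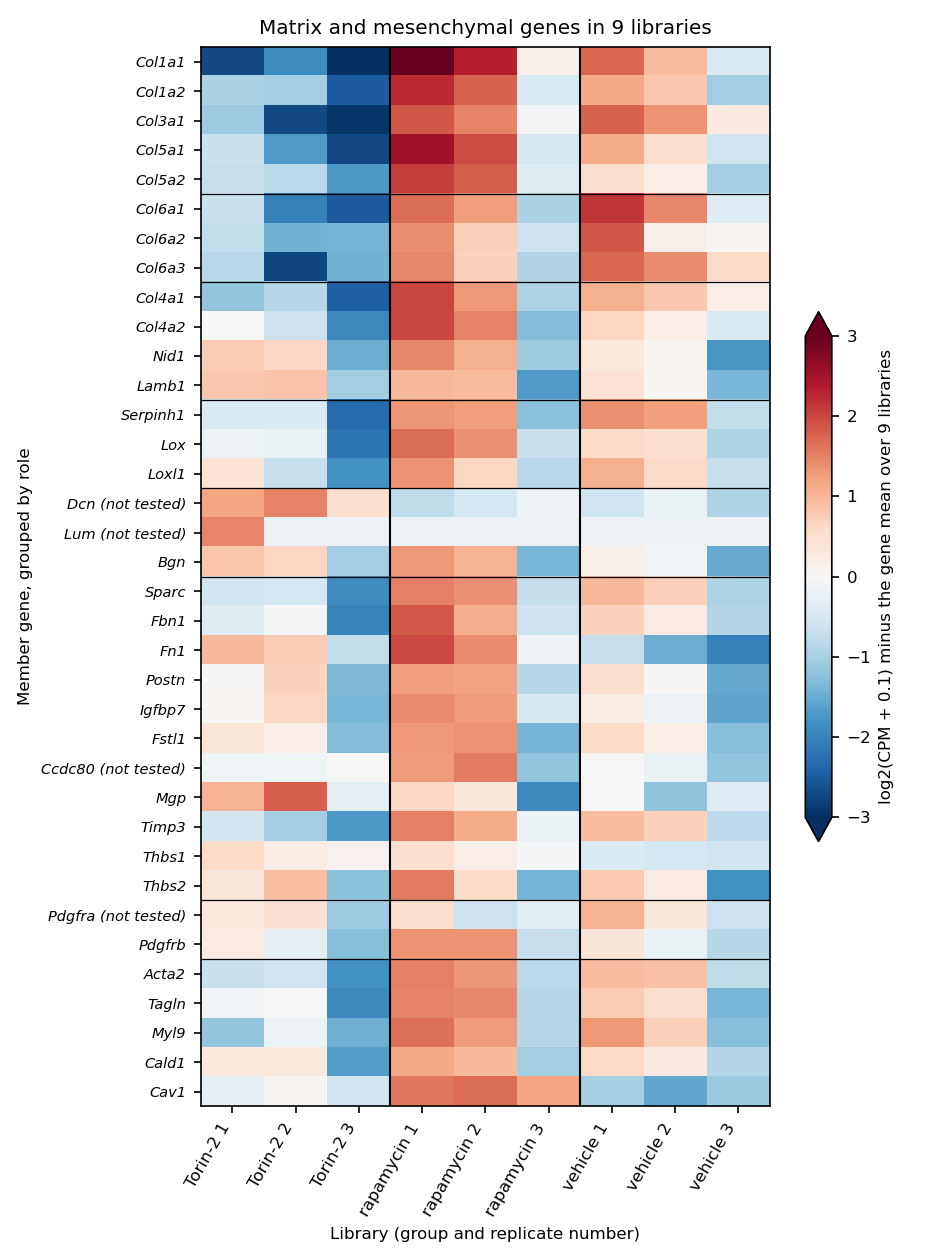
The heatmap shows log2(CPM + 0.1) of each member minus its mean over the 9 libraries, with members grouped by role down the page and libraries across it (Torin-2, rapamycin and vehicle, replicates 1 to 3 in each). Replicate 3 is the palest or bluest column of each group for most rows, Torin-2 is blue for the collagens, and rapamycin replicates 1 and 2 are red for most members.

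**Figure D2:**
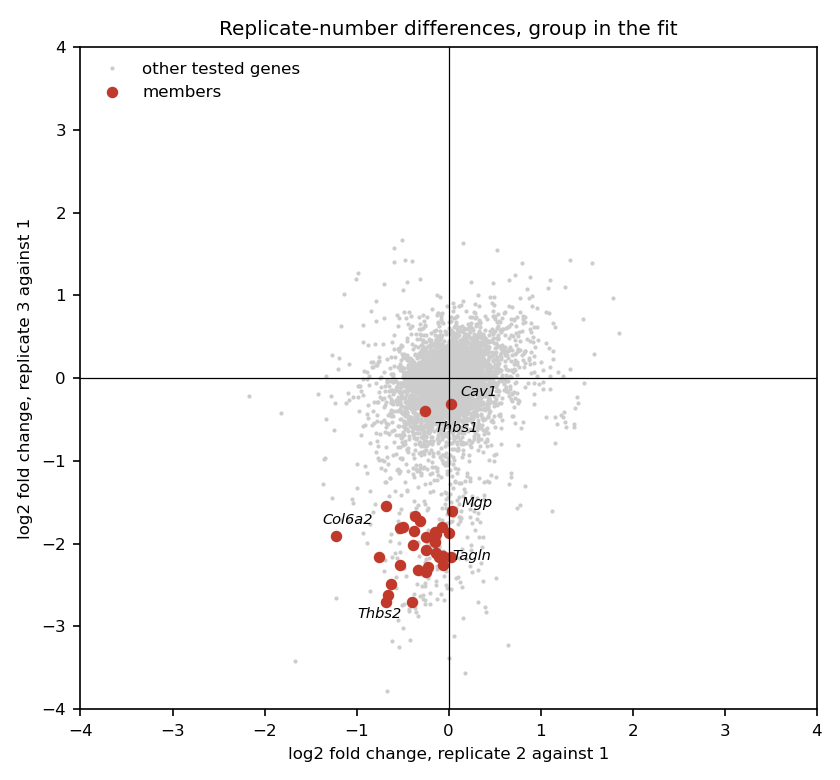
Each point is a tested gene, with the log2 fold change of replicate 2 against 1 on the x axis and of replicate 3 against 1 on the y axis, from the fit that holds treatment group. The 32 members (red) have a median of -2 on the y axis and of -0.254 on the x axis, with Thbs1 and Cav1 nearer to 0, while most of the other genes (grey) surround the origin.

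Libraries of the same number also deviated together across groups over all genes, so each treatment comparison is given without and with the replicate number as a block. The comparisons share libraries (vehicle serves both compounds), and their values are set side by side rather than counted as separate evidence. Without the block, Torin-2 against vehicle raised 3 members and lowered 11 of 32 (edgeR, adjusted p under 0.05), while 32.5% of all genes were called higher and 32.9% lower, 65.4% in all. These 14 calls without the block are a smaller share of the members than of all genes. With the block, 7 members were higher and 19 lower, against 34.8% of all genes in each direction and 69.6% in all. The 26 calls with the block are a larger share of the members than of all genes. For rapamycin against vehicle, 4 members were higher and 0 lower without the block (all genes 24.6% and 26.2%, 50.8% in all), and 22 higher and 0 lower with it (27.7% and 28.3%, 56.0% in all). Of those 22, Col4a2, Lamb1, Fstl1, Acta2 and Cald1 were lower with rapamycin in replicate 3, at ratios to vehicle of 0.496, 0.781, 0.916, 0.968 and 0.894. No member was lower with rapamycin at an unadjusted p under 0.05 by edgeR either, and DESeq2 and limma voom also called 0 lower. For Torin-2 against rapamycin, 0 members were higher and 17 lower without the block (24.2% and 24.1% of all genes, 48.2% in all), and 0 higher and 27 lower with it (27.0% and 27.6%, 54.6% in all). At an unadjusted p under 0.05, edgeR had 0 members higher in that comparison, as did DESeq2 and limma voom after adjustment. Each member called without the block was also called with it, in all 3 comparisons. The shares of all genes given here also stand beside the counts by role below.

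The estimates leaned to one side in each comparison. The median log2 fold change of the 32 tested members was -0.912 for Torin-2 against vehicle, 0.759 for rapamycin against vehicle and -1.73 for Torin-2 against rapamycin, where the medians over all genes were -0.008, 0.001 and -0.001. The mean level ran rapamycin above vehicle above Torin-2 in 18 of 32 members, against 11.38% of all genes, and rapamycin above Torin-2 above vehicle in 8, against 11.46%. The orders with rapamycin in the middle took 2 members with Torin-2 highest, against 27.29% of all genes, and 4 with vehicle highest, against 27.14%. Within each of the 3 replicate numbers, Torin-2 was below rapamycin in 26 of 32 members (36% of all genes), Torin-2 was below vehicle in 20 (40.2%), and rapamycin was above vehicle in 19 (35.2%). Without the replicate 3 library of every group, 33 members could be tested, and 8 were higher and 16 lower for Torin-2 against vehicle, 22 were higher for rapamycin against vehicle, and 1 was higher and 27 lower for Torin-2 against rapamycin. Of all genes, 63.8%, 49.1% and 45.9% were called in either direction in these 3 comparisons.

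**Figure D3:**
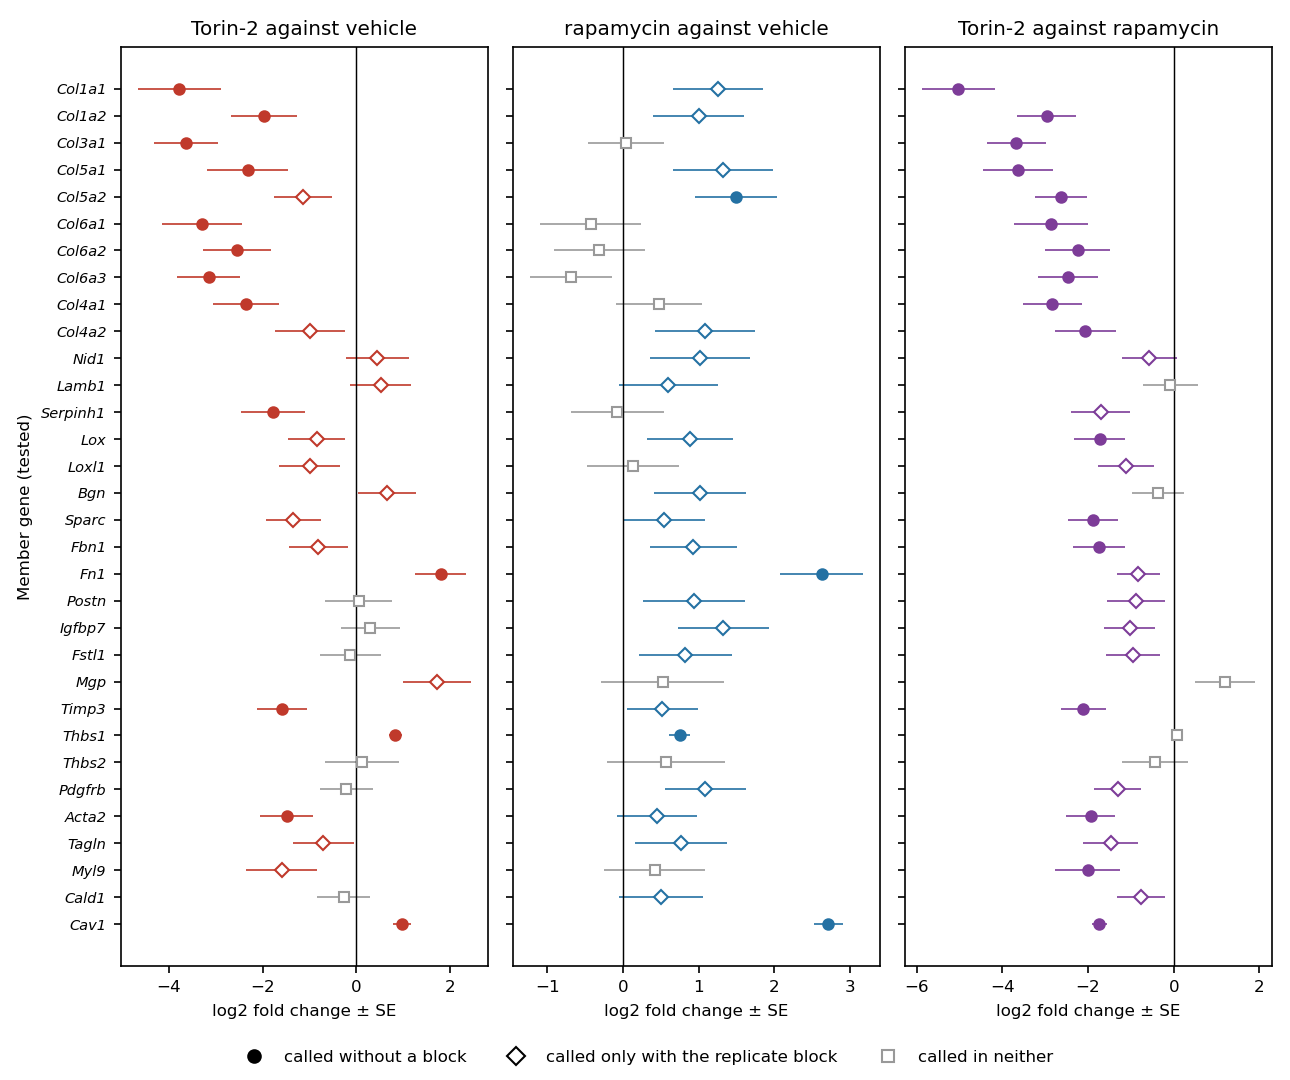
The log2 fold change ± SE of the 32 tested members is drawn for Torin-2 against vehicle (left), rapamycin against vehicle (middle) and Torin-2 against rapamycin (right), from the fit without a block. Filled points were called without the block, open diamonds only with it, and grey squares in neither fit. The collagens lie left of 0 in the left and right panels, and Fn1, Thbs1 and Cav1 lie right of 0 in the left and middle panels.

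Fibrillar collagens were lower with Torin-2. All 5 chains were lower with Torin-2 than with rapamycin, 4 of 5 were lower with Torin-2 than with vehicle (5 with the block), and 1 was higher with rapamycin than with vehicle (4 with the block). Col1a1, encoding the main chain of type I collagen (ENSMUSG00000001506, chromosome 11, 94936224 to 94953042, plus strand, GENCODE M21 on GRCm38), stood at 0.374, 0.744 and 0.247 CPM in Torin-2 libraries 1, 2 and 3. It stood at 25.2, 15.5 and 3.36 CPM in the rapamycin libraries and at 10.1, 5.78 and 2.17 CPM in the vehicle libraries. Every Torin-2 library lay below every library of both other groups, while rapamycin and vehicle overlapped. Behind these levels stand 7, 14 and 6 counts with Torin-2, 391, 327 and 67 with rapamycin and 237, 119 and 45 with vehicle. The log2 fold change of Col1a1 was -3.77 ± 0.89 for Torin-2 against vehicle (adjusted p = 0.00271 by edgeR, kept without each library in turn and lost with limma voom) and -5.03 ± 0.85 for Torin-2 against rapamycin (adjusted p = 0.000445). Rapamycin against vehicle gave 1.26 ± 0.59 (adjusted p = 0.0990 by edgeR), and 1.21 ± 0.19 with the replicate block, which was called.

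The partner chain Col1a2, whose start region is printed above, was also lower with Torin-2. It stood at 4.97, 4.73 and 1.64 CPM in the Torin-2 libraries, at 46.5, 33.6 and 7.02 CPM with rapamycin and at 21.3, 17.1 and 4.67 CPM with vehicle. Torin-2 and vehicle overlapped here, since Torin-2 libraries 1 and 2 lay just above vehicle library 3. Col1a2 was lower with Torin-2 than with vehicle by -1.97 ± 0.70 (adjusted p = 0.0267 by edgeR), a call lost without Torin-2 replicate 3, vehicle replicate 1 or vehicle replicate 2 and kept with the block. Per kb of exon, the level in the Torin-2 libraries averaged 0.0693 CPM for Col1a1 and 0.304 CPM for Col1a2, against 2.24 and 2.33 CPM in the rapamycin libraries and 0.919 and 1.15 CPM in the vehicle libraries. Within replicate numbers 1, 2 and 3 the ratio of Torin-2 to vehicle was 0.0369, 0.129 and 0.114 for Col1a1 and 0.234, 0.277 and 0.352 for Col1a2, so that Col1a1 was the more reduced in each.

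Type III and type V collagen, which join type I in mixed fibrils, were measured at lower counts. Col3a1 stood at 0.695, 0.159 and 0.123 CPM with Torin-2, at 6.05, 4.64 and 1.55 CPM with rapamycin and at 5.61, 4.22 and 1.93 CPM with vehicle. The Torin-2 libraries lay below all others, 2 of them with 3 counts each, and the rapamycin and vehicle libraries interleaved. The log2 fold change of Col3a1 was -3.63 ± 0.68 for Torin-2 against vehicle (adjusted p = 0.000508 by edgeR), a call kept without each library in turn, and rapamycin against vehicle gave 0.04 ± 0.50, with no call in either fit. Col5a1, a chain of the type V collagen that nucleates fibrils, stood at 0.642, 0.266 and 0.0822 CPM with Torin-2, at 6.76, 4.5 and 0.752 CPM with rapamycin and at 2.44, 1.60 and 0.674 CPM with vehicle. Its log2 fold change for Torin-2 against vehicle was -2.31 ± 0.87 (adjusted p = 0.0332 by edgeR), lost without Torin-2 replicate 2 or 3 or vehicle replicate 1 or 2. Col5a2 stood at 1.44, 1.33 and 0.657 CPM with Torin-2, at 10.4, 8.76 and 1.85 CPM with rapamycin and at 3.51, 2.77 and 1.11 CPM with vehicle. It was the one fibrillar chain called higher with rapamycin than with vehicle without the block (1.49 ± 0.54, adjusted p = 0.0372 by edgeR), and that call was lost in 5 of the 9 fits that left out a library and with DESeq2. The difference in rapamycin's effect between Col3a1 and the type V chains was not tested.

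Type VI collagen fell with Torin-2 in all 3 chains and was not called for rapamycin against vehicle in either fit. Col6a1 stood at 0.695, 0.213 and 0.123 CPM with Torin-2, at 3.93, 2.94 and 0.551 CPM with rapamycin and at 5.52, 3.35 and 0.867 CPM with vehicle. The highest Torin-2 library lay below the lowest vehicle library but above rapamycin library 3. The log2 fold change of Col6a1 was -3.29 ± 0.85 against vehicle (adjusted p = 0.00469 by edgeR). Col6a3, the longest of the chains, stood at 0.481, 0.0531 and 0.288 CPM with Torin-2, at 2.70, 1.56 and 0.451 CPM with rapamycin and at 3.30, 2.67 and 1.44 CPM with vehicle. Torin-2 against vehicle gave -3.15 ± 0.67 (adjusted p = 0.00134 by edgeR). Col6a2 had only 6, 3 and 4 counts with Torin-2, against 27, 22 and 7 with rapamycin and 57, 14 and 13 with vehicle. For Torin-2 against vehicle it had a log2 fold change of -2.55 ± 0.73 (adjusted p = 0.00894 by edgeR), and the call was lost without vehicle replicate 1, the library with 57 counts.

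Summed over the 10 collagen chains among the members, the level was 11.6, 9.19 and 3.78 CPM in Torin-2 libraries 1, 2 and 3, 114.8, 80.0 and 17.0 CPM in the rapamycin libraries, and 59.4, 42.2 and 16.03 CPM in the vehicle libraries. Torin-2 lay below both other groups in every library. Rapamycin and vehicle were closest in the libraries numbered 3.

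Of the 4 basement membrane genes, Col4a1 fell with Torin-2 against vehicle (32.9% of all genes fell). With the block 2 were higher and 2 lower (34.8% of all genes in each direction). Col4a1 stood at 0.535, 0.691 and 0.164 CPM with Torin-2, at 5.66, 3.46 and 0.652 CPM with rapamycin and at 2.91, 2.43 and 1.54 CPM with vehicle. All Torin-2 libraries lay below all vehicle libraries, and the log2 fold change of Col4a1 was -2.35 ± 0.70 (adjusted p = 0.0109 by edgeR). Col4a2, which shares its start region, stood at 1.39, 0.850 and 0.288 CPM with Torin-2, at 5.86, 4.07 and 0.501 CPM with rapamycin and at 2.23, 1.60 and 1.01 CPM with vehicle. It was not called against vehicle without the block (-0.98 ± 0.74, adjusted p = 0.265 by edgeR) and was called lower with it (-1.02 ± 0.40). Nid1, encoding the linker protein nidogen 1, stood at 8.77, 7.97 and 1.77 CPM with Torin-2, at 14.0, 10.9 and 2.41 CPM with rapamycin and at 6.38, 5.39 and 1.44 CPM with vehicle. Here Torin-2 lay above vehicle within each replicate number, by ratios of 1.38, 1.48 and 1.22, and only the fit with the block called it, at 0.47 ± 0.14. For the laminin chain gene Lamb1 the ratios were 1.30, 1.74 and 1.28, and the blocked estimate of 0.54 ± 0.21 was also called.

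Genes for folding and crosslinking collagen were lower with Torin-2, most of them only in the fit with the block. Serpinh1, the collagen chaperone gene, stood at 5.67, 5.74 and 1.48 CPM with Torin-2, at 19.4, 18.7 and 3.21 CPM with rapamycin and at 20.1, 18.4 and 4.57 CPM with vehicle. Rapamycin and vehicle were close in libraries 1 and 2, and Torin-2 stood at ratios of 0.282, 0.312 and 0.324 to vehicle within the 3 replicate numbers. The log2 fold change against vehicle was -1.78 ± 0.68 (adjusted p = 0.0368 by edgeR) and -1.73 ± 0.13 with the block. Without the block the call was lost in 5 of 9 fits that left out a library and with DESeq2. Lox stood at 9.36, 9.25 and 2.30 CPM with Torin-2, at 33.9, 27.6 and 6.62 CPM with rapamycin and at 16.01, 15.0 and 5.54 CPM with vehicle. Its estimates were called only with the block against vehicle, -0.86 ± 0.14 for Torin-2 and 0.81 ± 0.13 for rapamycin, and Torin-2 was lower than rapamycin in both fits (-1.73 ± 0.60, adjusted p = 0.0320 by edgeR, lost with DESeq2 and in 3 of 9 fits that left out a library). For the related oxidase gene Loxl1 the blocked estimates were -1.01 ± 0.23 for Torin-2 against vehicle and -1.13 ± 0.23 for Torin-2 against rapamycin. Both were called only with the block.

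Of the 3 small leucine-rich proteoglycans, only Bgn could be tested. Biglycan Bgn stood at 26.9, 23.6 and 7.44 CPM with Torin-2, at 37.5, 31.2 and 5.82 CPM with rapamycin and at 17.1, 14.0 and 5.25 CPM with vehicle. Against vehicle it was called higher for both compounds, but only with the block, at 0.67 ± 0.15 for Torin-2 and 0.94 ± 0.15 for rapamycin. Decorin Dcn, which binds collagen fibrils, was too low to test, with 10, 13 and 7 counts in the Torin-2 libraries, 1, 2 and 3 in the rapamycin libraries and 2, 3 and 1 in the vehicle libraries. Each Torin-2 library thus had more Dcn counts than any other library. Lumican Lum had 4 counts in Torin-2 library 1 and 0 in the other 8.

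Fibronectin rose with both compounds. Fn1 (ENSMUSG00000026193, chromosome 1, 71585520 to 71653200, minus strand) stood at 108.9, 93.8 and 33.1 CPM with Torin-2, at 219.4, 148.1 and 49.0 CPM with rapamycin and at 34.0, 19.5 and 13.5 CPM with vehicle. Every rapamycin library exceeded every vehicle library, and Torin-2 library 3 lay just below vehicle library 1. Fn1 was higher by 1.80 ± 0.54 with Torin-2 than with vehicle (adjusted p = 0.0116 by edgeR) and by 2.62 ± 0.55 with rapamycin than with vehicle (adjusted p = 0.00188). Between the compounds, Torin-2 against rapamycin gave -0.82 ± 0.51 (adjusted p = 0.203 by edgeR), which was called only with the block, at -0.76 ± 0.13.

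Thrombospondin 1 also rose with both, with similar estimates. Thbs1, on chromosome 2 from 118111876 to 118127133, stood at 345.1, 270.5 and 251.9 CPM with Torin-2, at 327, 267 and 225 CPM with rapamycin and at 174, 159.8 and 153 CPM with vehicle. Neither treated group overlapped vehicle, and the 2 treated groups overlapped each other. The log2 fold changes were 0.83 ± 0.14 for Torin-2 against vehicle (adjusted p = 0.000177 by edgeR), 0.75 ± 0.14 for rapamycin against vehicle (adjusted p = 0.000720) and 0.08 ± 0.13 for Torin-2 against rapamycin (adjusted p = 0.633). Thbs2 was far lower, at 0.411 to 2.13 CPM with Torin-2, 0.351 to 3.41 CPM with rapamycin and 0.241 to 1.97 CPM with vehicle, and was called in no treatment comparison.

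Of the 10 glycoproteins tested, 2 rose and 1 fell with Torin-2 against vehicle (3 and 3 with the block), 2 rose with rapamycin against vehicle (8 with the block), and 3 were lower with Torin-2 than with rapamycin (7 with the block). Over all genes, 32.5% rose and 32.9% fell with Torin-2 against vehicle (34.8% each with the block). With rapamycin against vehicle 24.6% rose (27.7% with the block), and 24.1% were lower with Torin-2 than with rapamycin (27.6% with the block). Sparc, a collagen-binding protein, and Timp3, a matrix-bound inhibitor of metalloproteinases, had rapamycin highest and Torin-2 lowest in their group means. Sparc stood at 13.1, 13.5 and 5.14 CPM with Torin-2, at 54.5, 49.4 and 11.6 CPM with rapamycin and at 37.5, 31.4 and 10.0 CPM with vehicle. It was lower with Torin-2 than with rapamycin (-1.88 ± 0.58, adjusted p = 0.0186 by edgeR, lost in 3 of 9 fits that left out a library), and against vehicle only with the block (-1.27 ± 0.13). Timp3 stood at 1.50, 1.06 and 0.616 CPM with Torin-2, at 6.63, 5.02 and 1.96 CPM with rapamycin and at 4.41, 3.69 and 1.25 CPM with vehicle. Its log2 fold change was -1.59 ± 0.54 for Torin-2 against vehicle (adjusted p = 0.0215 by edgeR), lost without Torin-2 replicate 2 or 3 or vehicle replicate 1 or 2. Against rapamycin, Torin-2 gave -2.11 ± 0.53 (adjusted p = 0.00643 by edgeR), kept without each library in turn.

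The remaining glycoproteins were called against vehicle in the fit with the block or not at all. Fibrillin-1 Fbn1, which forms microfibrils, stood at 2.57, 3.24 and 0.781 CPM with Torin-2, at 12.4, 7.29 and 2.16 CPM with rapamycin and at 5.48, 3.98 and 1.78 CPM with vehicle. Torin-2 was lower than rapamycin for Fbn1 in both fits, at -1.74 ± 0.61 without the block (adjusted p = 0.0340 by edgeR, lost with DESeq2 and in 4 of 9 fits that left out a library). Periostin Postn, Igfbp7 and follistatin-like Fstl1 were called higher with rapamycin than with vehicle only with the block, at 0.95 ± 0.31, 1.33 ± 0.25 and 0.75 ± 0.19. In replicate 3 the order was reversed for Fstl1, with 2.21 CPM with rapamycin and 2.41 CPM with vehicle. None of the 3 was called for Torin-2 against vehicle in either fit. Mgp, encoding an inhibitor of matrix calcification, had 20, 35 and 9 counts with Torin-2, 12, 13 and 1 with rapamycin and 11, 3 and 7 with vehicle. Its Torin-2 estimate against vehicle was 1.72 ± 0.73 (adjusted p = 0.0547 by edgeR) and was called only with the block, at 1.67 ± 0.56. Ccdc80 had 0 to 12 counts per library.

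The receptors for platelet-derived growth factor were low. Pdgfrb, a pericyte and fibroblast receptor, stood at 2.09, 1.44 and 0.657 CPM with Torin-2, at 4.57, 4.59 and 1.05 CPM with rapamycin and at 2.31, 1.50 and 0.915 CPM with vehicle. Rapamycin was above vehicle and above Torin-2 within each replicate number, and both differences were called only with the block, at 1.05 ± 0.26 for rapamycin against vehicle and -1.25 ± 0.26 for Torin-2 against rapamycin. Pdgfra, with 2 to 16 counts per library, could not be tested.

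Of the 5 contractile and caveolar genes, Acta2 fell and Cav1 rose with Torin-2 against vehicle, and with the block Tagln and Myl9 were lower too. Among all genes 32.9% fell and 32.5% rose, and 34.8% in each direction with the block. Acta2 stood at 12.6, 13.2 and 5.63 CPM with Torin-2, at 57.2, 50.5 and 11.3 CPM with rapamycin and at 38.2, 36.8 and 11.7 CPM with vehicle. The Torin-2 libraries numbered 1 and 2 lay below their vehicle counterparts but just above vehicle library 3. Acta2 was lower with Torin-2 than with vehicle by -1.49 ± 0.57 (adjusted p = 0.0369 by edgeR), a call lost in 5 of 9 fits that left out a library and with DESeq2. Tagln, with the values given above, was called against vehicle only with the block, lower with Torin-2 (-0.66 ± 0.11) and higher with rapamycin (0.75 ± 0.10). Myl9 stood at 0.428, 0.957 and 0.329 CPM with Torin-2, at 3.60, 2.75 and 0.551 CPM with rapamycin and at 2.83, 1.84 and 0.385 CPM with vehicle. It was lower with Torin-2 than with rapamycin (-2.01 ± 0.75, adjusted p = 0.0448 by edgeR), a call lost with library totals alone and in 4 of 9 fits that left out a library. The actin-binding protein gene Cald1 was not called for Torin-2 against vehicle in either fit, and its rapamycin estimate of 0.43 ± 0.13 was called only with the block. In replicate 3 its rapamycin library lay below vehicle, at a ratio of 0.894.

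Caveolin-1, the coat protein of caveolae, was separate in all 3 groups. Cav1 (chromosome 6, 17306335 to 17341452, plus strand) stood at 13.7, 17.2 and 10.9 CPM with Torin-2, at 49.2, 52.0 and 37.2 CPM with rapamycin and at 8.09, 5.48 and 7.51 CPM with vehicle. No library of one group reached the range of another. Cav1 rose by 0.98 ± 0.20 with Torin-2 against vehicle (adjusted p = 0.000886 by edgeR) and by 2.71 ± 0.19 with rapamycin against vehicle (adjusted p = 7.79e-07), and it was lower with Torin-2 than with rapamycin by -1.73 ± 0.18 (adjusted p = 1.15e-05). Cav1 and Thbs1 were also the members with the smallest differences between replicate numbers. Groups without overlap were found for 9 members in Torin-2 against vehicle (2 higher and 7 lower, with 35.1% of all genes in each direction and 70.2% in all). They were found for 3 in rapamycin against vehicle, all higher (27.8% of all genes higher and 29.7% lower, 57.5% in all), and for 8 in Torin-2 against rapamycin, all lower (28.9% higher and 28.2% lower, 57.2% in all).

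**Figure D4:**
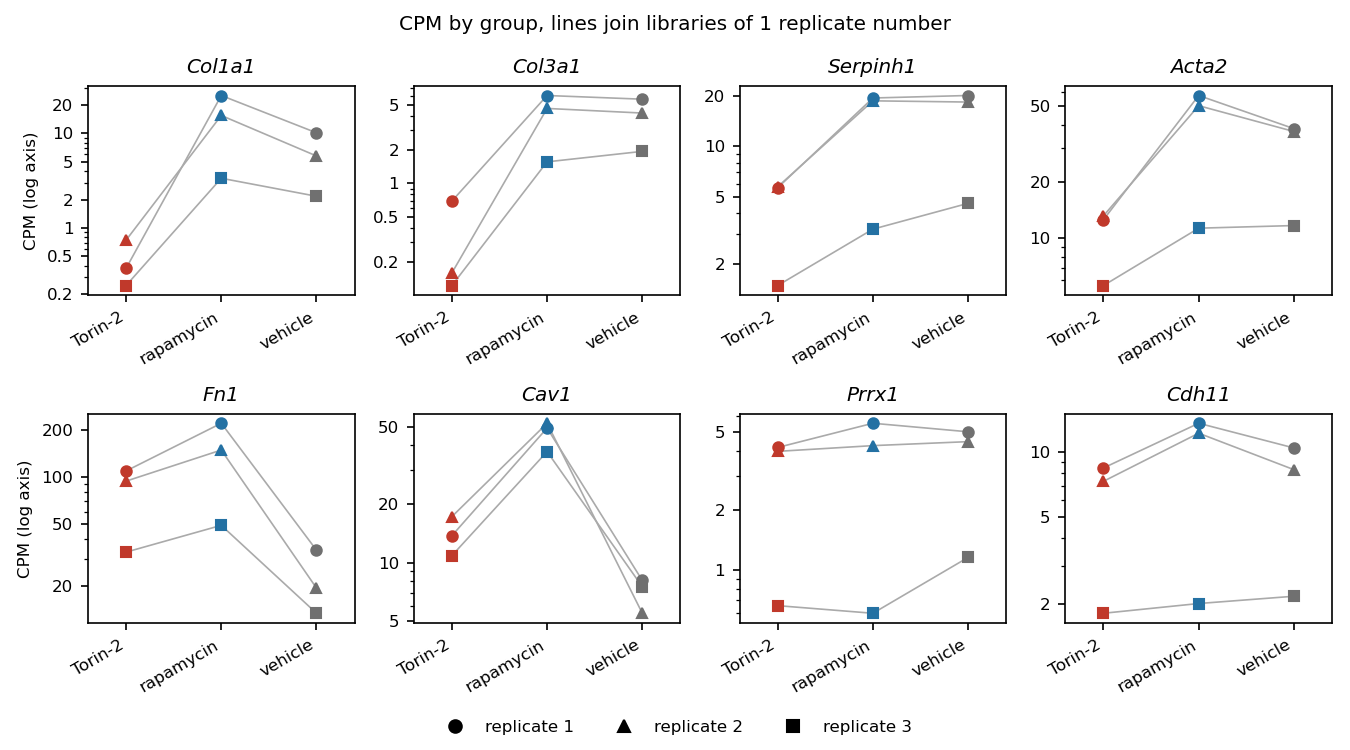
CPM (log axis) of 6 members and of the stromal genes Prrx1 and Cdh11 in Torin-2, rapamycin and vehicle, with grey lines that join libraries of 1 replicate number (circle 1, triangle 2, square 3). Replicate 3 is the lowest line for Serpinh1, Acta2 and Fn1, whereas the 3 lines of Cav1 lie together. Its line is not parallel to the others between rapamycin and vehicle. The rapamycin to vehicle ratios in replicates 1, 2 and 3 are 0.966, 1.02 and 0.701 for Serpinh1. They are 1.50, 1.37 and 0.968 for Acta2, and 6.45, 7.59 and 3.64 for Fn1. Prrx1 and Cdh11 are low in replicate 3 of each group and differ less across the treatments than across replicate numbers. They were chosen from 9 tested fibroblast markers, of which 4 were called by replicate number and 5 were not.

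Markers of cells that make matrix were examined beside these results, and their part in them was not tested. Of 19 fibroblast markers, Dpt, Mfap5 and Tcf21 had 0 counts in all 9 libraries and 9 had enough counts for a test. Their summed level was 4176 to 4658 CPM with Torin-2, 2192 to 3127 CPM with rapamycin and 1310 to 1338 CPM with vehicle, most of it from Vim, which macrophages also express. Of the 9 tested, Prrx1, Cdh11, Ddr2 and Mmp2 were called by replicate number, and values of the first 2, chosen after they were seen, are given. The transcription factor gene Prrx1 stood at 4.17, 3.99 and 0.657 CPM in Torin-2 libraries 1, 2 and 3, at 5.54, 4.26 and 0.602 CPM with rapamycin and at 5.01, 4.47 and 1.16 CPM with vehicle. The cadherin gene Cdh11 stood at 8.45, 7.33 and 1.81 CPM with Torin-2, at 13.6, 12.2 and 2.01 CPM with rapamycin and at 10.5, 8.30 and 2.17 CPM with vehicle. Both were several times lower in replicate 3 of every group, as most members were. The other 5 tested fibroblast markers were not called by replicate number. Their log2 fold changes for replicate 3 against 1 were 0.15 for Vim, 0.10 for Lsp1, -0.09 for Pdpn, -0.57 for S100a4 and -0.58 for Thy1. Of Prrx1, Cdh11, Ddr2 and Mmp2, none was called for Torin-2 against vehicle without the block. With the block Ddr2 (-0.61 ± 0.21) and Mmp2 (-0.61 ± 0.25) were called lower with Torin-2 than with vehicle. Cdh11 was then called lower with Torin-2 than with rapamycin (-0.61 ± 0.14) and higher with rapamycin than with vehicle (0.36 ± 0.14), and Mmp2 lower with Torin-2 than with rapamycin (-0.91 ± 0.25). Over the whole list, 2 markers were higher and 2 lower with Torin-2 than with vehicle (all genes 32.5% and 32.9%), and 2 and 4 with the block (34.8% each).

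By replicate number, 4 of the 9 tested fibroblast markers and 2 of the 5 tested marrow stromal and osteoblast markers were called, all lower in replicate 3 than in replicate 1. Of all genes tested, 4.42% were called by replicate number. The median log2 fold change of replicate 3 against 1 was -0.581 over the tested fibroblast markers, -0.920 over the marrow stromal markers, -1.09 over 2 meningeal fibroblast markers and -0.757 over 5 pericyte markers. It was -0.340 over 8 astrocyte markers, of which Gja1 was called (-1.82 ± 0.20), -0.132 over 7 neuron markers, -0.0755 over 5 endothelial markers, of which Esam was called (-1.53 ± 0.29), -0.0431 over 7 oligodendrocyte markers and 0.00481 over 16 macrophage markers. The 15 marrow stromal markers summed to 16.3 to 33.4 CPM with Torin-2, 17.4 to 28.7 CPM with rapamycin and 17.0 to 23.7 CPM with vehicle, with Adipoq and Bglap at 0 in all libraries. The 12 meningeal and perivascular fibroblast markers summed to 1.52 to 3.56 CPM with Torin-2, 1.15 to 4.63 CPM with rapamycin and 1.30 to 2.33 CPM with vehicle, with Lama1 and Slc22a6 at 0 throughout. Pericyte and smooth muscle markers (12 genes) summed to 1.89 to 3.14 CPM with Torin-2, 3.16 to 7.72 CPM with rapamycin and 2.46 to 4.54 CPM with vehicle. Cord cells, whose material the homogenate holds, were followed by their own markers. Oligodendrocyte and myelin markers (11 genes) summed to 367.9 to 425 CPM with Torin-2, 694 to 850 CPM with rapamycin and 482 to 616 CPM with vehicle. Most of this sum came from Mbp, at a mean of 452.9 CPM over the 9 libraries. Within each replicate number, rapamycin was highest and Torin-2 lowest in this sum and in that of the collagens. The summed macrophage, astrocyte, neuron and pericyte markers had that order too. Astrocyte markers (9 genes) summed to 21.1 to 23.3 CPM with Torin-2, 33.7 to 52.1 CPM with rapamycin and 28.1 to 37.7 CPM with vehicle. Neuron markers (10 genes) summed to 8.10 to 12.3 CPM with Torin-2, 20.9 to 28.1 CPM with rapamycin and 15.1 to 23.1 CPM with vehicle. Endothelial markers (14 genes) went another way, with 37.0 to 42.1 CPM with Torin-2, 14.1 to 22.8 CPM with rapamycin and 15.7 to 18.2 CPM with vehicle, most of it in the Torin-2 libraries from Vwf.

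Other genes of the collagen pathway, none of them a member, were counted in the same way. Their counts stand beside all genes tested, of which 32.5% were higher and 32.9% lower for Torin-2 against vehicle, 24.6% and 26.2% for rapamycin against vehicle, 24.2% and 24.1% for Torin-2 against rapamycin, and 4.42% called by replicate number. With the block, 27.7% were higher and 28.3% lower for rapamycin against vehicle. Of 34 further collagen genes, 13 had 0 counts in all libraries and 6 could be tested. Col15a1, a basement membrane zone collagen, stood at 7.65, 9.51 and 9.37 CPM with Torin-2, at 2.32, 2.89 and 1.80 CPM with rapamycin and at 1.41, 1.26 and 0.963 CPM with vehicle. In contrast to the member collagens, it rose with Torin-2 against vehicle, by 2.86 ± 0.21 (adjusted p = 2.83e-07 by edgeR), and was not called by replicate number (F test adjusted p = 0.665). Col18a1, from which endostatin is cut, stood at 2.25, 2.02 and 1.19 CPM with Torin-2, at 8.62, 5.21 and 4.56 CPM with rapamycin and at 9.25, 6.89 and 8.14 CPM with vehicle. Its log2 fold change for Torin-2 against vehicle was -2.17 ± 0.28 (adjusted p = 2.44e-05 by edgeR).

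Collagen is hydroxylated, folded and crosslinked by a dedicated set of enzymes. Of 25 tested genes for processing and crosslinking, 2 rose and 14 fell with Torin-2 against vehicle (all genes 32.5% and 32.9%), 3 rose and 8 fell with rapamycin against vehicle (6 and 9 with the block), and 2 rose and 13 fell with Torin-2 against rapamycin. Their median log2 fold changes were -0.828, -0.15 and -0.758. P4ha2, a prolyl hydroxylase subunit, stood at 8.93, 8.29 and 8.42 CPM with Torin-2, at 38.4, 36.5 and 29.3 CPM with rapamycin and at 56.4, 55.2 and 54.0 CPM with vehicle. Its log2 fold change was -2.69 ± 0.10 for Torin-2 against vehicle (adjusted p = 1.30e-09 by edgeR), and it was not called by replicate number (F test adjusted p = 0.365). By replicate number 7 of the 25 were called, all lower in replicate 3.

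The TGF-beta pathway is the best known inducer of collagen genes in fibroblasts. Of 22 tested genes of the pathway and its early targets, 10 rose and 5 fell with Torin-2 against vehicle (all genes 32.5% and 32.9%), 11 rose with rapamycin against vehicle (all genes 24.6%), and 4 rose and 8 fell with Torin-2 against rapamycin. The receptor gene Tgfbr1 and the inhibitory Smad7 rose with Torin-2 against vehicle, by 1.68 ± 0.09 and 1.80 ± 0.11. The ligand gene Tgfb2 was lower with Torin-2 than with vehicle (-2.46 ± 0.86, adjusted p = 0.0250 by edgeR), at a mean of 1.05 CPM.

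Further matrix and cytoskeletal genes were called in both directions. Of all genes tested, 32.5% rose and 32.9% fell with Torin-2 against vehicle, and 34.8% each way with the block. With rapamycin against vehicle 24.6% rose and 26.2% fell, and 27.7% and 28.3% with the block. By replicate number 4.42% were called. Of 27 tested matrix glycoproteins and proteoglycans outside the members, 4 rose and 8 fell with Torin-2 against vehicle (7 and 8 with the block), 6 rose and 2 fell with rapamycin against vehicle (10 and 4 with the block), and 10 were lower in replicate 3 than in replicate 1. Osteopontin Spp1, abundant in macrophages, fell with Torin-2 against vehicle (log2 fold change -1.16 ± 0.17, adjusted p = 6.46e-05 by edgeR), and Tgfbi rose by 1.33 ± 0.12. Of 24 tested contractile genes and targets of serum response factor, 10 rose and 1 fell with Torin-2 against vehicle (12 and 4 with the block), 11 rose and 1 fell with rapamycin against vehicle, and 3 were called by replicate number. Cytoplasmic actin Actg1 rose by 1.70 ± 0.08 with Torin-2 against vehicle, where smooth muscle actin Acta2 fell. Among 11 tested collagen receptors and uptake genes, 3 rose and 5 fell with Torin-2 against vehicle, and the inhibitory collagen receptor gene Lair1 fell (log2 fold change -0.96 ± 0.07, adjusted p = 1.25e-07 by edgeR).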

How the data were processed

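Libraries (NuGEN Universal Plus mRNA-seq) were read as 100 bp pairs, per the labels' protocols. The authors deposited raw gene counts; their processing notes name STAR 2.5.2a, bcl2fastq and FastQC and the builds mm10 and GRCm38.p6. How reads were counted, and whether by strand, is not given in the sources used here. Totals ran from 16116666 to 24044329 counts.

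Genes passing edgeR's expression filter by group (12511 of 53342) were scaled by TMM and fitted with edgeR 4.0.16 in R 4.3.3 (quasi-likelihood, group as the only term, all 9 libraries), with Benjamini-Hochberg adjustment over all of them, a threshold of 0.05 and 2-sided tests. SE is the absolute log2 fold change over the square root of F. Equal replicate numbers paired the libraries: deviations from group means correlated at 0.168 to 0.5 in the 9 same-numbered pairs and at -0.358 to 0.162 in the 18 others, so a fit with the replicate number as a block stands beside the first. The labels tie no library to an animal, so p-values measure the spread between these libraries. Gene models are GENCODE M21.

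The 36 members and all lists were chosen with earlier results of these data known. Members were named freely; from other lists, the genes with the largest change among those called at a mean of 1 CPM or more. Alternatives were DESeq2 1.42.0 and its size factors, library totals, other filters, limma 3.58.1 voom, the block, and fits without a library or without every replicate 3. The fits were tested on simulated counts.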

Additional observations from a re-analysis of the deposited data

How the results depend on the processing

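Of the values for single members under alternatives, 1471 kept their side of the threshold, 144 became called, 94 lost their call and 0 reversed, and no member called with or without the block changed sign in any comparison. Torin-2 against vehicle called 14 members (3 higher, 11 lower). It called 27 (8 higher, 19 lower) with no filter on low counts, 26 (7 higher, 19 lower) with the replicate block, 24 (8 higher) without replicate 3 of every group, and 8 (5 lower) with limma voom, which lost Col1a1, Col1a2, Col5a1, Serpinh1, Timp3 and Acta2. Leaving out 1 library gave 9 (without vehicle replicate 1) to 19 (without rapamycin replicate 3) called, 3 to 5 higher and 5 to 14 lower. Of all genes, 65.4% were called, and 37.3% with no filter, 69.6% with the block and 63.8% without every replicate 3. The share was 65.6% with limma voom, 59.1% without vehicle replicate 1 and 65.8% without rapamycin replicate 3. Rapamycin against vehicle called 4, and 21 with no filter, 22 with the replicate block, 22 without replicate 3 of every group, and 3 to 14 with 1 library left out (14 without rapamycin replicate 3). The shares of all genes were 50.8%, 28.2% with no filter, 56% with the block and 49.1% without every replicate 3. Without rapamycin replicate 3 it was 46.5%. Torin-2 against rapamycin called 17, and 29 with no filter, 27 with the replicate block, 28 without replicate 3 of every group, 8 with limma voom, and 9 (without rapamycin replicate 1) to 24 (without rapamycin replicate 3) with 1 library left out. Here the shares of all genes were 48.2%, 27.3% with no filter, 54.6% with the block and 45.9% without every replicate 3. They were 47.7% with limma voom, 42.1% without rapamycin replicate 1 and 46.6% without rapamycin replicate 3. The replicate number called 29, 24 to 31 with 1 library left out, and 4 without replicate 3 of every group, where the test compares replicate 2 with 1. Of all genes, it called 4.42%, 3.94% without rapamycin replicate 3, 7.39% without vehicle replicate 3 and 3.65% without replicate 3 of every group. DESeq2's size factors, library totals, DESeq2 and the stricter filter left each count within 1.5 times. Beyond the construction of the fits with fewer libraries or the block, the cause of these shifts was not tested. Low counts limit Col6a2, Col6a3 and Mgp, and Dcn, Lum, Ccdc80 and Pdgfra could not be tested. Torin-2 libraries 1, 2 and 3 were also low for Col3a1 (13, 3 and 3 counts), Col5a1 (12, 5 and 2), Col6a1 (13, 4 and 3) and Col4a1 (10, 13 and 4). The size of their fold changes for Torin-2 rests on these few counts.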

Other observations

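Genes outside the members, chosen after their values were seen, also moved with the replicate number. Timp1, an inhibitor of metalloproteinases, stood at 42.1, 40.0 and 6.49 CPM in Torin-2 libraries 1, 2 and 3, at 78.1, 72.8 and 13.8 CPM with rapamycin and at 44.0, 36.7 and 8.86 CPM with vehicle, a log2 fold change of -2.50 ± 0.09 for replicate 3 against 1. Ccl5 and Irf7 were higher in replicate 3. The chemokine gene Ccl5 stood at 145.1, 107 and 344 CPM with Torin-2, at 109, 72.5 and 309.8 CPM with rapamycin and at 33.7, 18.8 and 91.0 CPM with vehicle, a log2 fold change of 1.40 ± 0.09 for replicate 3 against 1. Irf7, an interferon regulatory factor, stood at 25.0, 15.2 and 56.2 CPM with Torin-2, at 32.1, 30.0 and 93.6 CPM with rapamycin and at 19.4, 11.9 and 57.5 CPM with vehicle, a log2 fold change of 1.43 ± 0.11.

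Vwf, encoding von Willebrand factor and also chosen after its values were seen, was higher with Torin-2 than with vehicle by 3.11 ± 0.17 on the log2 scale (adjusted p = 2.23e-08 by edgeR). It stood at 30.1, 29.4 and 27.5 CPM with Torin-2, at 9.14, 6.01 and 6.62 CPM with rapamycin and at 2.78, 3.06 and 4.24 CPM with vehicle. Of the other 4 endothelial markers tested, Cdh5 was lower with Torin-2 than with vehicle (-1.91 ± 0.50, adjusted p = 0.00501 by edgeR), Esam was called lower only with the replicate block (-1.23 ± 0.26), and Kdr and Pecam1 were called in neither fit. Their levels over all 9 libraries were 0.0535 to 1.17 CPM for Cdh5, 0.370 to 6.16 CPM for Esam, 5.21 to 8.71 CPM for Kdr and 0 to 0.758 CPM for Pecam1.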
